A study of Drosophila melanogaster with 2 samples.

Results

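ZIPIC binding in Drosophila melanogaster embryos was described at 8 genes of the trithorax group: trx, ash1, ash2, brm, osa, mor, skd and kto. They were taken by their gene symbols, all 8 of which matched the 13986 protein-coding genes of the annotation. The rule used no measured value, though the list was drawn up with earlier results of these data known. Chromatin was precipitated with an antibody against GFP and its DNA sequenced (ChIP-seq), from a transgenic line that stably expresses CG7928 (ZIPIC) with GFP at its C terminus. There was 1 group, whole embryos of both sexes pooled and aged 0 to 24 h, with 2 biological replicates that the labels number 2 and 3. The labels do not say what drives the fusion, and embryos of all ages and tissues were mixed, so a value below is an average over the whole embryo. There was no second condition, so each gene is described beside all protein-coding genes, and no test was applied to a list chosen by name.

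Trithorax group proteins keep developmental genes such as the Hox genes active once their expression has been set, and they counteract the Polycomb group, which keeps such genes silent. Some act as histone methyltransferases, some as subunits of ATP-driven nucleosome remodellers, and some as parts of Mediator, which links transcription factors to RNA polymerase II. ZIPIC binds DNA through zinc fingers and recruits the insulator cofactor CP190, which places it among the architectural proteins of the fly. The genes are taken here as possible sites of ZIPIC binding, not as its partners.

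The 4 lists on the dm6 genome build were used. Each replicate had a list of 30000 candidate entries and the pooled replicates had another 30000. The optimal list keeps 2971 peaks after a procedure based on how similarly replicates rank their peaks. These are the top 2971 entries of the pooled list by signal. A place in it does not mean an entry in both replicates. At the summit, 79.3% of optimal peaks had an entry of replicate 2 and 99.2% had one of replicate 3. Signal is the authors' score per entry, of unstated scale, so it was compared only within a list. The lists give no read numbers, so the depth behind a value was unknown. Rank 1 is the strongest entry of a list, and coordinates count from 1 on dm6. An entry was at a start when its summit lay within 500 bp of an annotated transcription start of the gene, and in the body when it lay inside the gene and farther from every start.

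Optimal peaks occurred at 5 of the 8 genes, 7 peaks in all. At a start 4 genes had one, namely brm, skd, mor and trx (50% of 8, exact Clopper-Pearson 95% interval 15.7 to 84.3%), beside 18.3% of all protein-coding genes. In the body trx had 1 and osa had 2 (2 genes, 25% of 8), beside 4.51% of all protein-coding genes. The genes ash1, ash2 and kto had no optimal peak at all. Of the 8 genes 4 are at least 10000 bp long (trx, brm, osa and skd), and 2 of these 4 had a body peak, beside 21.2% of genes of that length. None of the 4 shorter ones had one, beside 1.74% of genes under 10000 bp. The interval covers counting error only. The 8 genes were chosen by name and are not a random draw, so it is no test against the 18.3%. Entries of any strength at a start occurred at 6 of the 8 genes in the pooled list (beside 50.6% of protein-coding genes), at 2 in replicate 2 (beside 31.7%) and at 7 in replicate 3 (beside 56.3%).

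The 7 peaks fell into a stronger and a weaker set. Those at the brm start, in the trx body and at 2 places in the osa body had pooled ranks of 513, 519, 562 and 760. Those at the starts of skd, mor and trx ranked 2003, 2595 and 2708. The stronger peaks were 260 to 310 bp wide, and the weaker ones all had the width of 410 bp that 58.3% of optimal peaks share.

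The 100 bp around each summit are printed because these are the sequences that the 7 peaks centre on. They were read from the RefSeq copy of the Release 6 (dm6) genome and are given for its plus strand, in order of pooled rank, and none of them includes annotated UTR sequence. Capitals mark AGTCACT, a string picked out only after these sequences had been read.
brm start, chr3L:15982935-15983034: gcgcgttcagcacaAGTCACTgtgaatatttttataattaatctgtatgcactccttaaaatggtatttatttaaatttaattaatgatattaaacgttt
trx body, chr3R:14283836-14283935: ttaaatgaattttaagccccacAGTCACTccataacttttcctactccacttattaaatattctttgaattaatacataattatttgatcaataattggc
osa body, chr3R:17704347-17704446: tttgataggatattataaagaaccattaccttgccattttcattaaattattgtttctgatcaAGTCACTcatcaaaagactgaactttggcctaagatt
osa body, chr3R:17700483-17700582: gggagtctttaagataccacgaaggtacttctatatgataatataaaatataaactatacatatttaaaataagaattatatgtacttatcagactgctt
skd start, chr3L:21027786-21027885: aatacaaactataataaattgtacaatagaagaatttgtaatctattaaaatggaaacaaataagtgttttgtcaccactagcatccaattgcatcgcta
mor start, chr3R:15973008-15973107: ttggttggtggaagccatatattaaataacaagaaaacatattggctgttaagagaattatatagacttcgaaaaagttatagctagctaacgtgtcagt
trx start, chr3R:14286958-14287057: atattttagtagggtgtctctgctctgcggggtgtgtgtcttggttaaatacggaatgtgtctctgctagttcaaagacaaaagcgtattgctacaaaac

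None of the 7 sequences held any of 7 strings that were sought on both strands. The strings were CAGGGCTG, the core of the ZIPIC site, its shorter form AGGGNTG, the BEAF-32 string CGATA, the sites TATCGATA (DREF), GGTCACACT (M1BP), GAGAG (GAGA factor) and the E-box CACGTG; every CAGGGCTG also holds AGGGNTG, and every TATCGATA also holds CGATA. Over all optimal peaks, 7.51% of 100 bp windows held CAGGGCTG, 17.0% AGGGNTG, 22.9% CGATA, 4.07% TATCGATA, 1.41% GGTCACACT, 9.02% GAGAG and 0.808% CACGTG. Windows without any of the strings made up 60.1% of all optimal peaks, and 161 of the 248 peaks (64.9%) from rank 513 to rank 760, the span of the 4 stronger ones. A ZIPIC core with up to 1 mismatch was also absent from the 7 sequences, and occurred in 19.7% of optimal windows. In windows of 200 bp it occurred at 1 of the 7 peaks, that at the trx start, beside 25.4% of optimal peaks. The lack of a match says only that these letters are not in these windows.

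The sequences were rich in A and T. Their GC content was 25%, 26%, 27%, 27%, 30% and 32% in 6 of the 7, and 42% at the trx start. All optimal peaks had a median of 36% with quartiles of 30% and 44%, and 35.5% of them were at 32% or less. Distal peaks, farther than 500 bp from every annotated start of any gene, had a lower median (34%) than the rest (37%). By this measure the osa peak 17817 bp into the gene, with 25% GC, is near a start. It lies 208 bp from that of lncRNA:CR46036. Windows at 32% or less made up 41.6% of distal peaks and 32.7% of those near a start. Of the 7, the start peaks of brm, skd and mor had 26%, 27% and 32%. Whether place bears on the GC content of the 7 was not tested. GC content is plotted for the 7 peaks over the distribution of all optimal peaks.

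**Figure D1:**
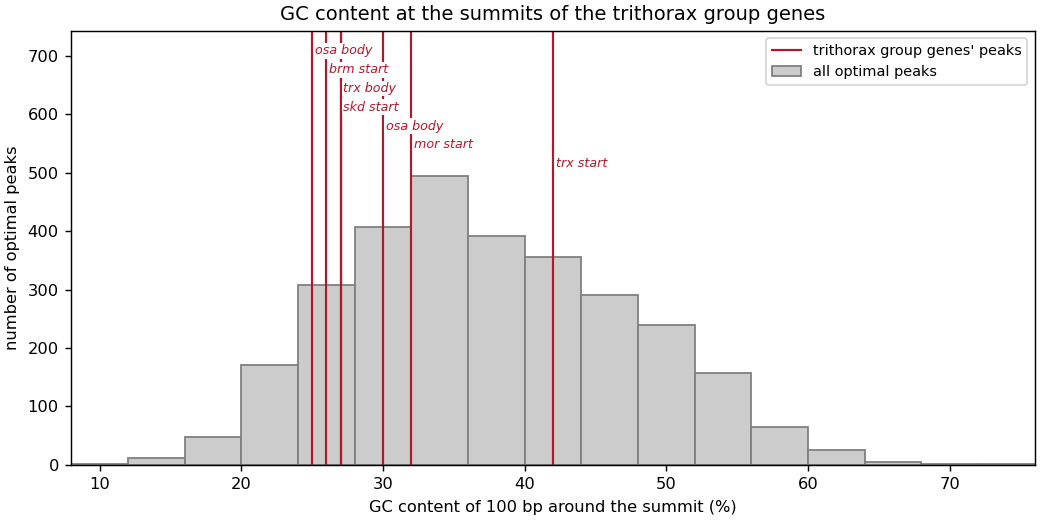
GC content in percent of the 100 bp around each summit (horizontal axis) against the number of optimal peaks (vertical axis, grey bars for all 2971); red lines are the 7 peaks at trithorax group genes. Of the 7, 6 lie between 25% and 32%, and the peak at the trx start lies at 42%.

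Among the histone methyltransferase genes, trx had the most binding. It encodes an H3K4 methyltransferase and gave the group its name. The gene (FBgn0003862, 3R: 14263358 to 14286903, minus strand) has a single annotated start, used by all 5 of its transcripts. Its strongest peak was not there but in an intron 3017 bp into the gene (3R: 14283729 to 14284014), with a pooled signal of 628. That peak ranked 521 in replicate 2 (signal 314) and 511 in replicate 3 (signal 306), almost the same place in each list. Its summits in the replicates lay 20 bp from the pooled one. No start of any other annotated gene lay within 500 bp of it.

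The start of trx itself carried a much weaker peak (3R: 14286803 to 14287212), 105 bp upstream, with a signal of 135 and a −log10 q-value of 2.56. Replicate 3 listed it at rank 1318 (signal 118), and replicate 2 had no entry at the summit. A further pooled entry, in the 5' UTR 639 bp from the start, ranked 3006 and so lay just outside both the 500 bp limit and the optimal list. In all, trx held 10 pooled entries, all of them between 105 bp upstream and 8839 bp downstream of the start of a 23546 bp gene. As many or more were found at 28.4% of the 1986 protein-coding genes that are at least 10000 bp long, whose median was 6.

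The gene ash1 encodes an H3K36 methyltransferase and lies back to back with Taf6, a subunit of the general transcription factor TFIID, with 333 bp between the starts. It (FBgn0005386, 3L: 19590773 to 19598755, minus strand) had no pooled entry and none in replicate 2. Replicate 3 had 1 entry, in the 5' UTR 141 bp from the start, at rank 5612 (signal 49.9). The nearest optimal peak had its summit 141 bp past the other end of the gene, 8123 bp from the ash1 start. It was a strong one, at rank 128 with a signal of 2054, and its summit lay 108 bp from the start of CG14100.

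The gene ash2 encodes a subunit shared by the H3K4 methyltransferase complexes (FBgn0000139, 3R: 24650125 to 24653376, plus strand). It has 3 annotated starts, the outer one 82 bp from the divergent start of puf, a deubiquitinating enzyme gene. Its only pooled entry, at rank 6030 (signal 77.6), was not at that shared promoter but 53 bp from the middle start, which lies 1055 bp inside the gene. Replicate 3 placed its strongest ash2 entry in the same region, 80 bp from the middle start, at rank 3900 (signal 61.2). At the outer start replicate 3 had an entry at rank 22136, and replicate 2 had no entry anywhere in the gene.

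Of the nucleosome-remodeller genes, brm had the strongest start peak of the 8 genes. Brm is the ATPase of the SWI/SNF-type BAP and PBAP complexes. The peak (3L: 15982858 to 15983149) had a pooled signal of 633, which 17.2% of optimal peaks exceeded. It ranked 444 in replicate 2 (signal 408) and 690 in replicate 3 (signal 211), well inside the strongest 2971 of both. The brm gene (FBgn0000212, 3L: 15970082 to 15982869, minus strand) has 2 starts 20 bp apart, and the summit lay 116 bp upstream of the outer one. The divergent gene Arl1, for a small GTPase of the Golgi, starts 150 bp away on the other side, so the peak sits between both starts. The 3 other pooled entries, in brm introns, ranked 5082, 11411 and 11828. With 4 pooled entries brm was below the median of 6 for genes at least 10000 bp long, of which 67.8% held as many or more. At 12788 bp brm is among the shorter genes of that class, and no comparison at equal length was made.

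The gene osa, for the ARID-domain subunit that marks the BAP form of the complex, showed the opposite arrangement. Both of its optimal peaks lay in introns, far from its single start (FBgn0261885, 3R: 17687818 to 17718350, minus strand). The one 13953 bp into the gene (3R: 17704281 to 17704540) had a pooled signal of 563 and ranked 486 in replicate 2 (signal 353) and 678 in replicate 3 (signal 215). The one 17817 bp into the gene (3R: 17700413 to 17700722) had a signal of 386 and ranked 836 in replicate 2 (signal 173) and 650 in replicate 3 (signal 228). Their order by signal thus differed between the replicates. Both overlap or neighbour long noncoding RNA genes nested in osa on the other strand. The stronger one lay in an exon of lncRNA:CR46035, 702 bp from its start, and the weaker one 208 bp from the start of lncRNA:CR46036.

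At the osa start the replicates and the pooled list ranked the entries differently. Replicate 2 had an entry at rank 2466 (signal 63.9) with its summit 168 bp upstream of the start. Replicate 3 had one at rank 2159 (signal 87.3) with its summit 163 bp downstream, in the 5' UTR. Each rank is within the strongest 2971 of its own list, but these summits are 331 bp apart. Replicate 3 also had weaker entries 64 bp upstream, on the same side as that of replicate 2, at rank 11543, and farther upstream at rank 28268. The pooled list had 2 entries there, at ranks 7048 and 8083, both outside the optimal list. The gene held 15 pooled entries, and 13.3% of genes at least 10000 bp long held as many or more.

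The gene mor encodes Moira, the core scaffold subunit of both BAP and PBAP, and had the least supported of the 7 peaks (3R: 15972853 to 15973262). The pooled signal was 139 and the −log10 q-value 2.54. Replicate 2 had no entry at the summit, and the entry in replicate 3 ranked 22176 of 30000 (signal 22.8). Only 4 of the 2971 optimal peaks (0.135%) had a replicate 3 entry of that rank or a weaker one, the peak at mor among them. A replicate 3 entry at the summit was present at 2946 of the 2971, and peaks without any are not in the count of 4. The summit lay 145 bp upstream of the single mor start (FBgn0002783, 3R: 15968134 to 15972913, minus strand) and 240 bp from the divergent start of Hel89B, a helicase gene. A separate replicate 3 entry, 536 bp into mor and just past the 500 bp limit, ranked higher, at 7793.

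The genes skd and kto encode the Mediator subunits Med13 and Med12, which work together in the kinase module, and they stood apart from each other. At skd (FBgn0003415, 3L: 20992814 to 21027434, minus strand) the optimal peak (3L: 21027631 to 21028040) had a pooled signal of 166 and ranked 2879 in replicate 3 (signal 73.4). Replicate 2 had no entry at skd at all. The summit lay 402 bp upstream of the outer skd start, near the 500 bp limit, and only 79 bp from a start of the divergent gene Pdss2, which encodes a subunit of the enzyme that makes the side chain of coenzyme Q. The inner skd start, 1230 bp farther in, had no entry within 500 bp in any of the lists used. With 34621 bp skd is the longest of the 8 genes, and it had 2 pooled entries, that of the optimal peak included. As many or more were found at 87.3% of genes at least 10000 bp long, whose median was 6. Replicate 3 had 10 entries in the skd body, at ranks from 4444 to 19416.

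No entry of any of the 4 lists lay at kto (FBgn0001324, 3L: 19836614 to 19844944, plus strand), neither at its 2 starts, 6480 bp apart, nor in its body. The nearest pooled summit lay 100 bp outside the gene and 1950 bp from its nearer start. That weak entry ranked 24108 (signal 38.4) and lay 249 bp from a start of Papss. The nearest optimal peak was 18540 bp away, with its summit 100 bp from a start of Deaf1, a transcription factor gene. All entries are plotted along the 8 genes.

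**Figure D2:**
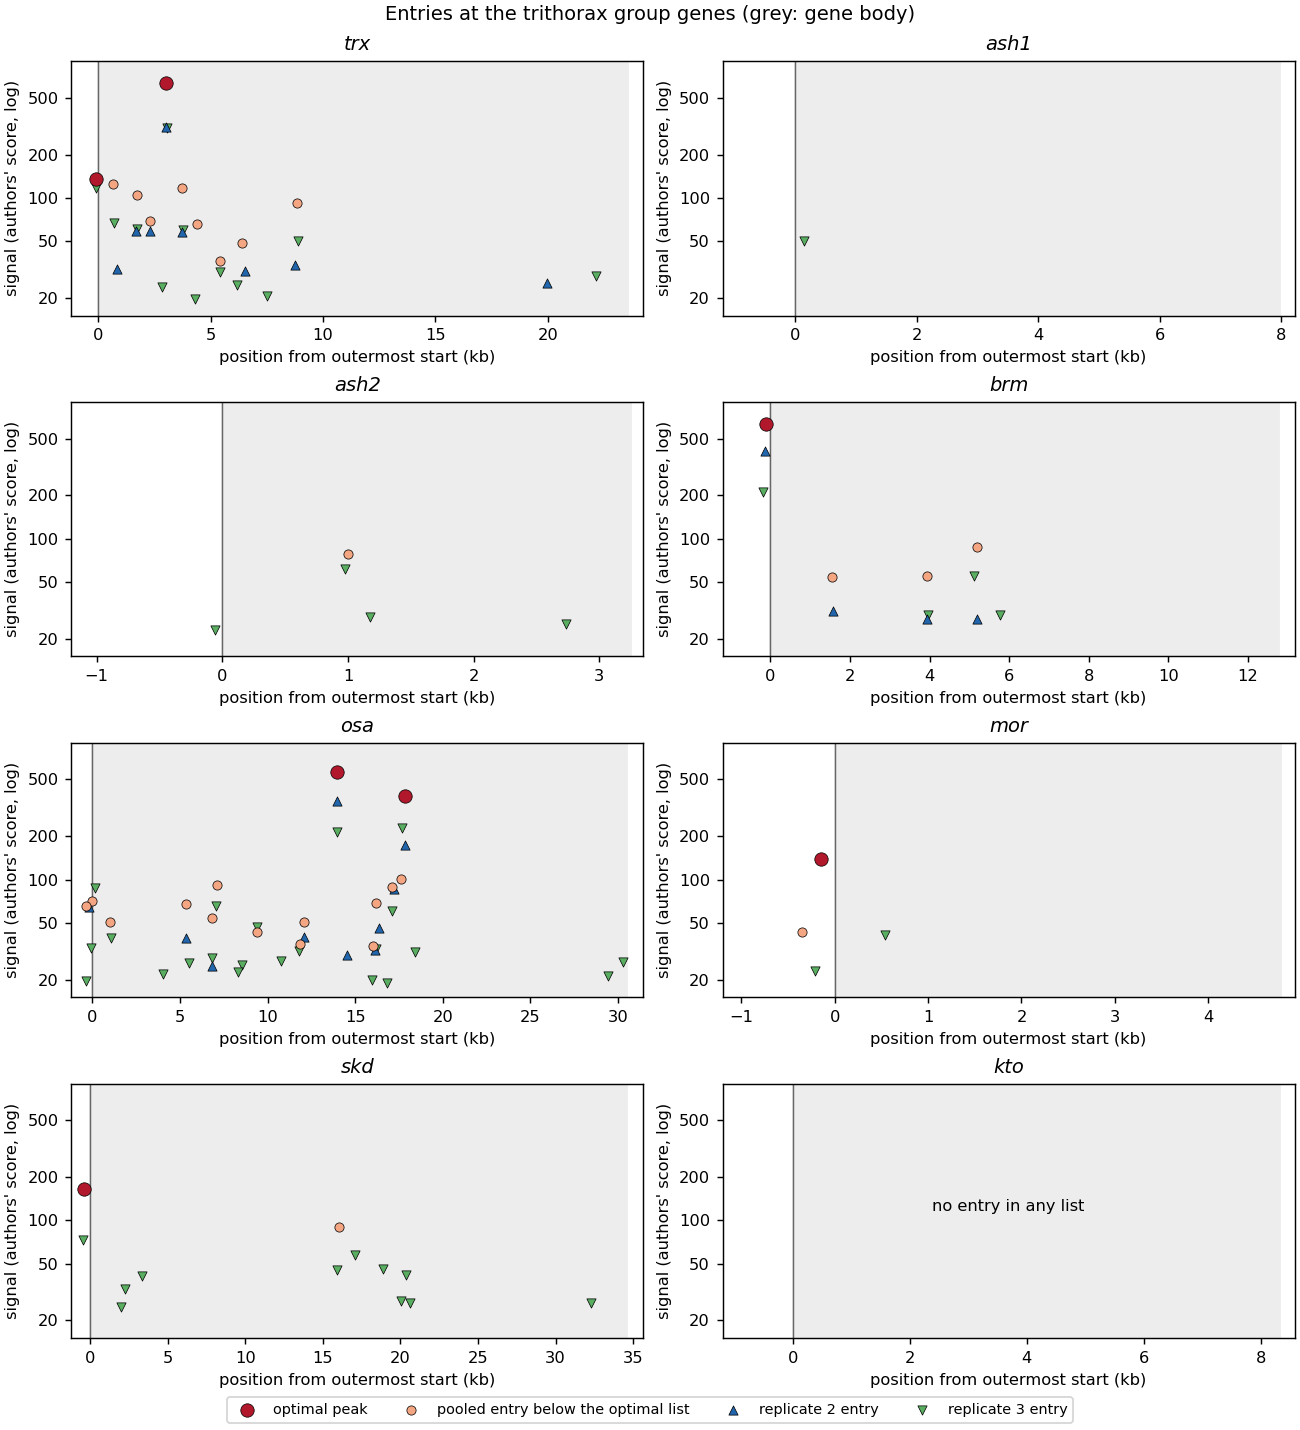
Entries at each gene by position of the summit from the outermost start in kb (horizontal axis, direction of transcription to the right, grey for the gene body) and by signal (vertical axis, the authors' score, log scale), with large red circles for optimal peaks, orange circles for other pooled entries and triangles for the replicates (upward for 2, downward for 3); signals compare only within a list. The strongest peaks are inside trx and osa and upstream of brm, and kto has no entry.

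Support by replicate 2 followed the division into stronger and weaker peaks. The pooled list is made from both replicates, so its signal is not independent of theirs. Ranks in replicate 3 did not follow pooled order among the weaker start peaks. They were 2879 at skd, 22176 at mor and 1318 at trx, for pooled ranks of 2003, 2595 and 2708. All 7 peaks had an entry of replicate 3 at their summit, and 4 had one of replicate 2: the 4 stronger ones. Over all optimal peaks, 99.2% had an entry in replicate 3 and 79.3% in replicate 2. Among optimal peaks with a signal over 300, which the 4 stronger ones exceed, 92.5% had a replicate 2 entry, against 70.1% of those under 170, where the other 3 lie. Each of the 4 stronger peaks ranked from 444 to 836 in both replicates. The ranks are plotted for each peak and list.

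**Figure D3:**
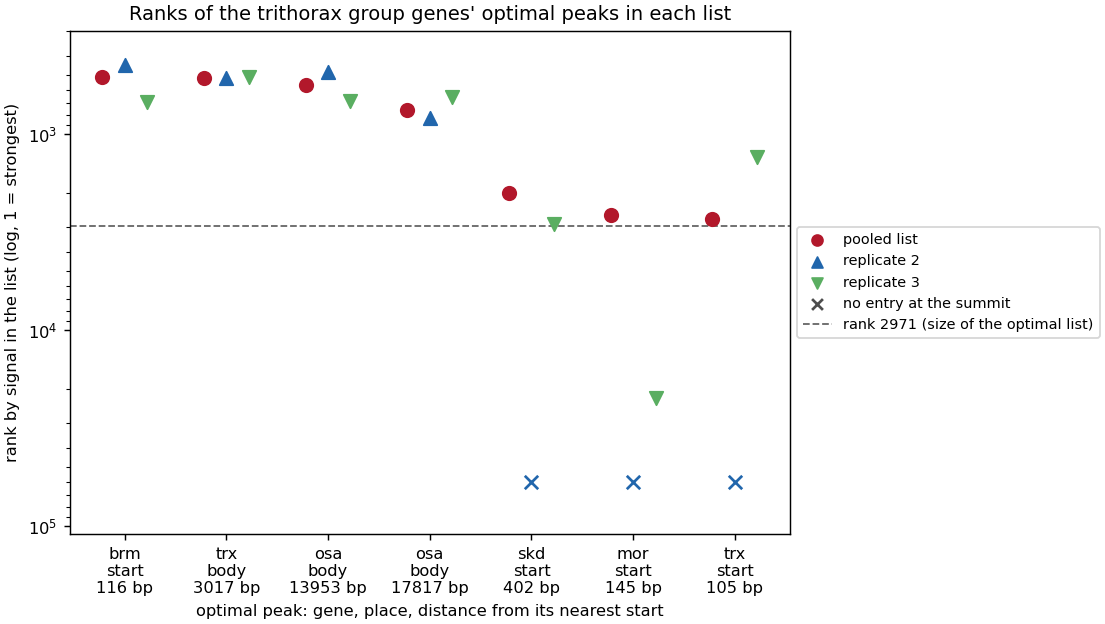
Rank by signal (vertical axis, log scale, strongest at the top) of the 7 optimal peaks in the pooled list (circles), in replicate 2 (upward triangles) and in replicate 3 (downward triangles); crosses, set below all ranks, mark peaks with no entry at the summit, and the dashed line is rank 2971. The 4 stronger peaks rank between 444 and 836 in every list, and the 3 weaker ones have no entry in replicate 2.

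Counted in each replicate's own strongest 2971 entries, the genes with a start entry were brm and osa in replicate 2 (25% of 8, beside 13.6% of protein-coding genes). In replicate 3 they were trx, brm, osa and skd (50%, beside 20.1%). Of the 8, brm and osa had one in both (25%, beside 10.9%), and of these brm alone also had an optimal start peak. Among the 1485 strongest optimal peaks, too, brm was the only one with a start peak (12.5% of 8, beside 10.8%). With the weaker peaks left out, the share of 12.5% rested on brm alone (exact 95% interval 0.316 to 52.7%). Although close to 10.8%, it is too uncertain to place the 8 genes near to or far from all genes. The 50% with an optimal start peak comprised brm, which replicate 2 listed at its summit, and skd, mor and trx, which it did not. The intron peaks of trx and osa were found in the strongest entries of both replicates.

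Some of the 8 share a promoter region with another gene. Of the 8, 5 have a divergent protein-coding start within 1000 bp, beside 36.2% of all protein-coding genes: ash1 with Taf6, ash2 with puf, brm with Arl1, mor with Hel89B and skd with Pdss2. Of these 5, 3 (brm, mor and skd) had an optimal start peak, beside 33.7% of the 5056 protein-coding genes with such a neighbour. Of the other 3 genes 1 did (trx), beside 9.6% of the 8930 genes without one. A peak at a shared promoter cannot be told apart as belonging to either gene.

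Another 34 genes of the same complexes, or described as trithorax group genes or their interactors, were followed by a list of symbols; 2 of them (dalao and lid) matched under their present symbols Bap111 and Kdm5. Of the 34, 11 had an optimal start peak (32.4%, beside 18.3% of protein-coding genes). All 11 had an entry in replicate 3 at the summit, and 6 had one in replicate 2.

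Among genes of the BRM complexes 3 of 8 had a start peak. Bap60, a core subunit of both forms, had the strongest of all these genes (X: 13159352 to 13159902, signal 2969, rank 47). It ranked 37 in replicate 2 and 67 in replicate 3, although its summit was nearer to the start of CG12096. Bap170, the ARID-domain subunit of the PBAP form, had a peak at rank 832 with no replicate 2 entry, within 500 bp of a start of Trap1. Act5C, one of the actin genes, had one at rank 1782, 447 bp from its start and nearer to that of lncRNA:CR45668. Snr1, polybromo and Bap111 had only weaker pooled start entries (ranks 4411, 7189 and 21381), and Bap55 and e(y)3 had none.

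Among the 12 genes of COMPASS-type methyltransferase complexes 3 had a start peak. The strongest were at Lpt (rank 207, signal 1633) and trr (rank 250, signal 1459). The proteins Lpt and Trr correspond to separate parts of a single mammalian H3K4 methyltransferase. Their replicate ranks were 188 and 231 at Lpt and 240 and 257 at trr, in replicates 2 and 3 in that order. The start of CG5339 was nearer to the Lpt summit, and trr shares its promoter region with mRpL16. Rbbp5, a core subunit, had a weak peak (rank 2392) with no replicate 2 entry, and the start of eRF1 lay nearer.

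In the Mediator kinase module Cdk8, its kinase, had a strong peak 35 bp from a start, with no start of another gene within 500 bp (3L: 9838544 to 9838885, signal 1457). It ranked 273 in replicate 2 and 222 in replicate 3. CycC, the cyclin of the module, had no optimal start peak. Its strongest start entry ranked 4479 in the pooled list and 1776 in replicate 3, and replicate 2 had none. Of the 4 genes of the module, Cdk8 ranked first in the pooled list and in replicate 3, and kto had no entry. The order of skd and CycC turned round between these lists, with skd ahead in the pooled list (2003) and CycC ahead in replicate 3, where skd ranked 2879. Neither MRG15 nor Caf1-55, whose products bind Ash1, had an optimal start peak.

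Of the 10 remaining genes 4 had one. They were tara (rank 1077), Trl, which encodes GAGA factor (rank 1129), fs(1)h, a BET-family bromodomain gene (rank 1937, with a start of mys nearer to the summit), and psq, which encodes a DNA-binding protein (rank 2639). Of these tara alone had a replicate 2 entry at the summit, at rank 999. The strongest start entry of each gene is plotted by rank.

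**Figure D4:**
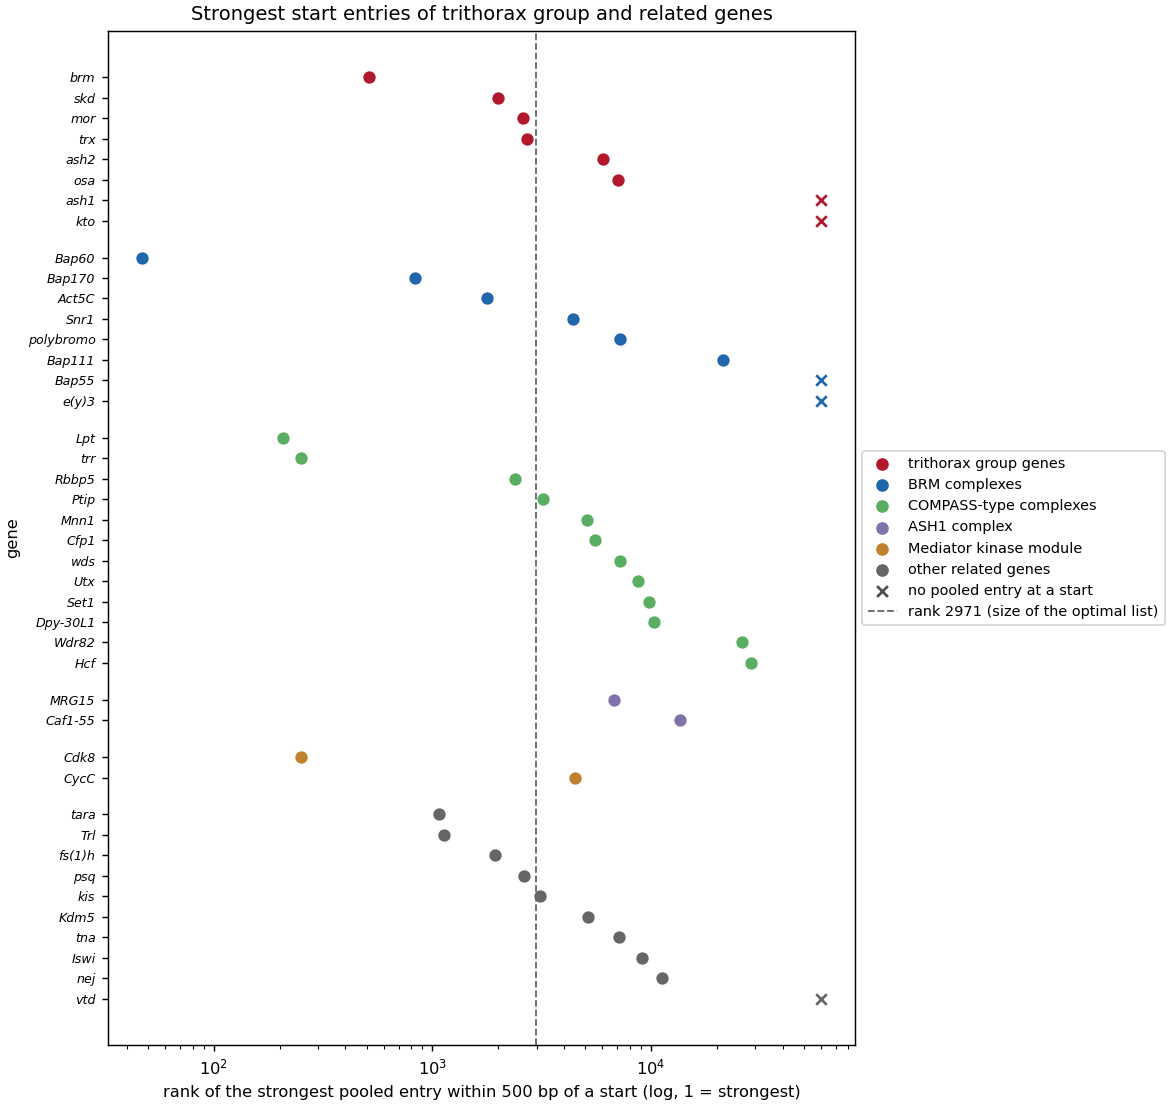
Rank in the pooled list (horizontal axis, log scale, strongest at the left) of the strongest entry within 500 bp of a start for each of the 8 trithorax group genes and the 34 related genes (vertical axis, coloured by complex); crosses, set to the right of all ranks, mark genes with no such entry and the dashed line is rank 2971. Bap60, Lpt, trr and Cdk8 rank ahead of brm, the strongest of the 8.

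The same strings were sought at the 11 peaks of the related genes. The ZIPIC core or its shorter form lay within 50 bp of the summit at 6 of the 11 peaks, including Bap60, Lpt, trr and Cdk8. Over all optimal peaks, 17.0% of such windows held the shorter form, which every core also holds. It was absent at the other 5 of the 11 (Act5C, Rbbp5, Trl, fs(1)h and psq). Exact CAGGGCTG occurred at Bap60, Bap170 and Lpt (3 of the 11, beside 7.51% of optimal peaks). CGATA occurred at 7 of the 11, beside 22.9% of optimal peaks. The sequences of 4 peaks picked for holding a match are printed. Capitals mark the match to CAGGGCTG or to a form with 1 mismatch, on either strand. UTR sequence was trimmed off at Bap60 and Cdk8.
Bap60, chrX:13159537-13159603: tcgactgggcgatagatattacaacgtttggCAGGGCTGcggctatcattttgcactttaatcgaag
trr, chrX:1889980-1890079: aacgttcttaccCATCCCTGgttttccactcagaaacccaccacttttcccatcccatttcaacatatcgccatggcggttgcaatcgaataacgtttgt
Cdk8, chr3L:9838671-9838754: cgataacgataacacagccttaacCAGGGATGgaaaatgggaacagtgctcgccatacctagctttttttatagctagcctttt
tara, chr3R:16242699-16242798: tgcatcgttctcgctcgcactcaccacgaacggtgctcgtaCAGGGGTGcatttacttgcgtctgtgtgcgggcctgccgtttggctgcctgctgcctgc
The 11 are all start peaks, while 3 of the 7 lie in introns, and no test between the lists was made. The peaks at Bap60, Lpt, trr and Cdk8 were also stronger than each of the 7. Among the 248 optimal peaks of ranks 513 to 760, 64 (25.8%) held AGGGNTG or a ZIPIC core with up to 1 mismatch. The 11 peaks of the related genes all rank outside that span.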

How the data were processed

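The authors deposited peak lists of 2 replicates on builds dm3 and dm6, per the file names and descriptions. The 4 dm6 lists were used and the 4 dm3 lists were not analysed here. A single control alignment served both replicates, per the deposited descriptions. Neither caller nor aligner is given in the sources used here. Of the deposited columns, signal is a score per entry. The deposited −log10 q-value is at its maximum of 3.65 for 74.4% of optimal peaks, so entries were ranked by signal. Summits are deposited offsets.

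Entries were placed on Ensembl release 115 (BDGP 6.54) gene models, transposable elements left out, and on the Release 6 genome, which is dm6. An entry supported a peak when it held the summit. Counting was tested on simulated summits. The members and lists were chosen with earlier results of these data known. All 8 genes are named, as are the related genes with an optimal start peak. Alternatives were other distances, windows, overlap rules, a stricter list and each replicate alone. Python 3.11.15, pandas 2.3.3 and scipy 1.17.1 were used.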

Additional observations from a re-analysis of the deposited data

How the results depend on the processing

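The count of 4 genes with an optimal start peak was 3 within 250 bp, where skd dropped out, and 4 within 1000 bp, with any base of the peak or with the outermost starts. It was 1 among the 1485 strongest optimal peaks, and 2 to 4 in single replicates. Of the 34 related genes 11 had a start peak, 7 among the 1485 strongest, 6 in replicate 2 and 13 in replicate 3. There were 9 within 250 bp, 12 within 1000 bp and 9 at the outermost starts. The share of all protein-coding genes moved too. It was 18.3% in the main setting, 10.8% among the 1485 strongest, 13.6% in replicate 2 and 20.1% in replicate 3. For the other distances, any base of the peak and the outermost starts no such share was computed. Counts under those settings, for either list of genes, thus have no comparison with all genes. A body peak was at 2 trithorax group genes under every alternative run. Of the 4 start peaks 1 lay among the strongest entries of replicate 2 under each overlap rule, and 3 lay among those of replicate 3, or 4 among all its entries. The ranks at trx (2708) and osa (7048) were 1318 and 2159 in replicate 3, and that at mor (2595) was 22176. The cause of these shifts was not tested. In 200 bp windows AGGGNTG occurred in 1 of the 7 peaks (skd), beside 22.35% of optimal peaks. CGATA occurred in 1 (trx start), beside 37.3%, and GAGAG in 2 (trx body and osa body), beside 20.2%. The ZIPIC core with up to 1 mismatch occurred in 1 (trx start), beside 25.4%. The remaining strings occurred in none of the 7 at 50, 100 or 200 bp. No paired analysis was possible because there is 1 group. Depth is unknown and there was no precipitation from untagged embryos in the lists used, so unspecific recovery was not tested.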

Other observations

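The string AGTCACT was noticed when the 7 sequences were read, at 3 of the 4 stronger peaks: 36 bp before the brm summit, 28 bp before the trx intron summit and 13 bp after that of the osa peak 13953 bp into the gene, counted to its first base along the plus strand. Since it was picked from these sequences, its count there supports nothing. Over all 2971 optimal windows it occurred in 0.740%, the same share as in flanks 150 to 250 bp to one side of the summits (0.740%), and in 0.784% of the weaker pooled entries. Among the 248 optimal peaks of ranks 513 to 760 it occurred in 6 (2.42%), of which those at brm, trx and osa are 3. The string was thus not more frequent at ZIPIC peaks as a whole than beside them.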
